A study of Zea mays with 74 samples.

Results

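Selective sweeps between maize landraces and modern maize are described here, as the genome regions that the authors' scan for selection assigned to this pair of populations. The deposited sweep table held 4060 regions for 3 pairs of populations, and the 1375 rows labelled with landrace and maize were taken, whatever their length or score. The landraces were 17 open-pollinated plants from Mexico, each resequenced from a seedling leaf (whole-genome sequencing, WGS), and modern maize was 14 published inbred lines that include B73, the line of the reference genome. No plant or line was treated. The landraces were outbred plants sequenced by the authors, and the maize lines were inbreds sequenced by another project. Source of the reads and inbreeding therefore cannot be told apart from population. Among the sweeps, teosinte (Zea mays ssp. parviglumis, 20 plants), the wild ancestor, entered only the 1330 teosinte-maize and 1355 teosinte-landrace sweeps. These share the maize lines or the landrace plants with the sweeps described here and are set beside them for that reason only. Regions of differing DNA methylation, set against the sweeps further below, came from bisulfite sequencing of the 17 landrace and 20 teosinte plants and of published maize lines. Teosinte entered many of these regions, among them those behind the gene lists. Each sweep was called once from all plants of both populations, so the table gives no value per plant, no depth and no spread between replicates, and the values below are descriptions with no test.

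Landraces are varieties that farmers kept by saving and replanting seed, and modern inbred lines were bred from such material by repeated self-pollination and selection. When an allele rises quickly in one population, it carries along the neighbouring variants that recombination has not yet separated from it, and the allele frequencies of a whole stretch then differ between the populations. This stretch is a selective sweep. XP-CLR, the cross-population composite likelihood ratio, scores windows of the genome for such shared shifts of allele frequency between a pair of populations. The higher the score, the stronger the shift relative to the rest of the genome. The table gives 1 score per sweep and does not name the population in which the allele rose.

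The 1375 landrace-maize sweeps covered 325 Mb, or 15.5% of the 2105 Mb from the first base to the last position listed for the 10 chromosomes. This corresponds to 6.53 sweeps per 10 Mb. No sweep overlapped or touched another, the narrowest space between neighbours being 50 kb, as in both other pairs. The authors scanned in windows of 50 kb and merged nearby ones, so this minimum is bound to the scan. Teosinte-maize sweeps covered 15.8% and teosinte-landrace sweeps 15.9%. The authors kept the upper tail of the scores in each pair, and a cutoff by rank fixes in part how much sequence is kept, so these totals do not measure how strong selection was.

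The sweeps were unequally spread over the chromosomes. Chromosome 4 had the highest covered share, with 181 sweeps over 20.1% of its length, followed by chromosome 5 with 167 sweeps over 18.9% and chromosome 1 with 213 sweeps over 17.9%. These same chromosomes also had the most sweeps per 10 Mb after length was taken into account, at 7.33 on chromosome 4, 7.47 on chromosome 5 and 6.94 on chromosome 1. Chromosome 3 had the lowest covered share, 11.8% with 136 sweeps, and also the lowest number per 10 Mb, 5.77. Chromosome 8 had 112 sweeps over 12.7% and chromosome 7 had 107 over 12.8%. The other chromosomes lay between 13.7% (chromosome 6, 103 sweeps) and 15.3% (chromosome 9, 104 sweeps), with 13.8% on chromosome 2 (149 sweeps) and 14.7% on chromosome 10 (103 sweeps). From the lowest to the highest chromosome, the number per 10 Mb thus ran from 5.77 to 7.47, in proportion a narrower range than that of the covered share.

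Part of the difference in covered share lay in long sweeps. With only sweeps up to 1 Mb, the covered shares ran from 9.88% on chromosome 9 to 15.5% on chromosome 5, with 13.5% on chromosome 4 and 12.5% on chromosome 1. Sweeps over 1 Mb held 33.1% of the swept sequence of chromosome 4 (10 sweeps) and 30.5% of that of chromosome 1 (11 sweeps). On chromosome 9 they held 35.4% in only 3 sweeps. On chromosome 8, by contrast, 1 sweep over 1 Mb held 4.83% of the swept sequence, on chromosome 7 1 sweep held 6.83%, and on chromosome 3 2 sweeps held 7.90%. Median lengths differed little, from 127.5 kb on chromosome 9 to 160.0 kb on chromosome 5. Chromosome 9 therefore combined the lowest median with the highest share in long sweeps.

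**Figure D1:**
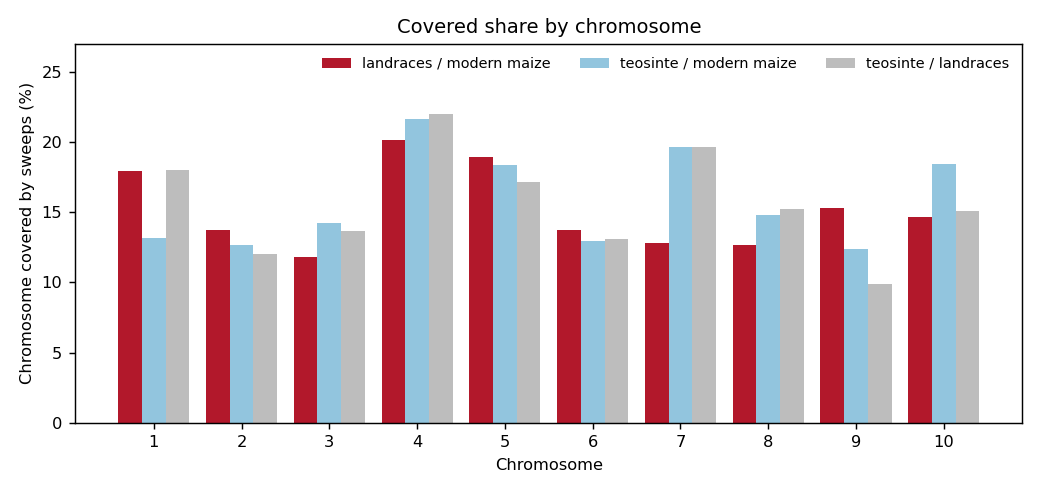
Share of each chromosome (%) covered by sweeps, with bars for the landrace-maize pair and, beside it, both pairs that include teosinte. Landrace-maize bars run from 11.8% on chromosome 3 to 20.1% on chromosome 4. The pairs share plants or lines, and no bar has an error because each sweep is a single call for the population.

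Set side by side by chromosome, the landrace-maize pair covered less than the teosinte-maize pair on chromosome 7, at 12.8% against 19.7%, where teosinte-landrace sweeps covered 19.6%. The longest sweep of chromosome 7 measured 1595 kb between landraces and maize, 9545 kb between teosinte and maize and 8740 kb between teosinte and landraces. On chromosome 10 the landrace-maize share was 14.7%, the teosinte-maize share 18.4% and the teosinte-landrace share 15.1%. Chromosome 1 showed the opposite order, with 17.9% between landraces and maize, 13.2% between teosinte and maize and 18.02% between teosinte and landraces. On chromosome 9, 104 landrace-maize sweeps covered 15.3%, 86 teosinte-maize sweeps covered 12.4% and 56 teosinte-landrace sweeps covered 9.88%. Chromosome 9 was the chromosome on which the landrace-maize share stood highest above the teosinte-landrace share. Because the calls give no spread between plants, it is not known how far these shares would move with other plants of the same populations.

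Most landrace-maize sweeps were short. The median length was 145 kb, with quartiles of 90 kb and 245 kb and a mean of 237 kb. The 20 shortest sweeps measured 50 kb, and all starts and ends lay on a grid of 5 kb, which are the window and step sizes of the authors' scan. There were 444 sweeps up to 100 kb, 32.3% of all, which together held 10.47% of the swept sequence. Another 470 sweeps of more than 100 kb and up to 200 kb held 21.0%, and 341 of more than 200 kb and up to 500 kb held 31.4%. At the upper end, 80 sweeps of more than 500 kb and up to 1 Mb held 16.9%, and the 40 sweeps over 1 Mb, 2.91% of all sweeps, held 20.2% (65.8 Mb). The longest 224 sweeps, each of at least 330 kb, were enough to hold 50% of the swept sequence.

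The longest sweeps of the other pairs were longer, 9545 kb for teosinte-maize and 8740 kb for teosinte-landrace sweeps, both on chromosome 7, against 3990 kb for landrace-maize sweeps. Sweeps over 1 Mb held 26.9% of the teosinte-maize and 22.3% of the teosinte-landrace swept sequence. The medians were 130 kb and 145 kb, close to the 145 kb of the landrace-maize sweeps, whereas the longest sweeps differed.

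The longest landrace-maize sweep was chr9:53400001-57390000 (B73 AGPv4 coordinates, as for all positions here), with a length of 3.99 Mb and an XP-CLR of 139, only the 101st highest score. The second longest, chr9:58545001-61890000, measured 3.35 Mb with an XP-CLR of 111 and began 1155 kb after the end of the first. Within the first, teosinte-maize sweeps covered 3190 kb and teosinte-landrace sweeps 3380 kb. Within the second they covered 2915 kb and 2605 kb. Both sweeps of chromosome 9 thus lay in sequence that was also called in both pairs with teosinte, at scores below those of many shorter sweeps.

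The third longest sweep, chr6:48485001-51130000, measured 2.65 Mb with an XP-CLR of 186. Teosinte-maize sweeps covered 2565 kb of it and teosinte-landrace sweeps none. The longest sweep of chromosome 2, chr2:125355001-126990000 (1.64 Mb, XP-CLR 123), had the reverse pattern, with no base in a teosinte-maize sweep and 1385 kb in teosinte-landrace sweeps. Among the 10 longest sweeps and the longest of each chromosome, no other had a zero in either pair. The longest sweep of chromosome 8, chr8:27935001-29045000 (1.11 Mb, XP-CLR 182), came nearest, with 70 kb in teosinte-maize sweeps and 680 kb in teosinte-landrace sweeps.

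Chromosome 4 held 3 of the 10 longest sweeps, all within one stretch. The sweep chr4:96350001-98840000 measured 2.49 Mb and had an XP-CLR of 147. Its neighbour chr4:98925001-101250000, 85 kb further on, measured 2.33 Mb and had an XP-CLR of 152. The third, chr4:102465001-104635000, measured 2.17 Mb and had an XP-CLR of 145. In these, teosinte-maize sweeps covered 1735 kb, 2135 kb and 2105 kb, and teosinte-landrace sweeps 1630 kb, 1760 kb and 1425 kb, in the same order.

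On chromosome 1, the 3 sweeps among the 10 longest were chr1:126965001-129235000 (2.27 Mb, XP-CLR 209), chr1:134390001-136420000 (2.03 Mb, XP-CLR 206) and chr1:139900001-141765000 (1.87 Mb, XP-CLR 161). The remaining one was chr5:119235001-121375000, at 2.14 Mb and an XP-CLR of 180. All 10 had their middle between 28.6% and 53.8% of the chromosome length, counted from the first base. The longest sweeps of the remaining chromosomes were chr3:89030001-90145000 (1115 kb, XP-CLR 95.9), chr7:38320001-39915000 (1.60 Mb, XP-CLR 122) and chr10:101430001-103155000 (1.73 Mb, XP-CLR 172). The score of the chromosome 3 sweep was the lowest among all 40 sweeps over 1 Mb.

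The XP-CLR scores of landrace-maize sweeps ran from 62.1 to 350, with a median of 85.3 and quartiles of 72.2 and 106. Scores rose with length, with a Spearman correlation of 0.50 over the 1375 sweeps. Neighbouring sweeps are not independent points, and a long sweep is merged from many overlapping windows, so the correlation is given as a description. The median score was 76.0 up to 100 kb, 82.1 from there to 200 kb, 97.2 to 500 kb, 119 to 1 Mb and 153 above 1 Mb. Of the 138 sweeps in the highest 10% of scores (127 and above), 28 were longer than 1 Mb, and their median length was 372.5 kb. The 20 sweeps of 50 kb reached at most 105.

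Of the 10 highest scores, 5 belonged to sweeps over 1 Mb, but not the first and the second. The highest, 350, was that of chr1:99790001-100355000, which measured 565 kb and was the 102nd longest. The second, 286, was that of chr5:142275001-142685000, at 410 kb the 163rd longest. Both stood apart from the third, which was 235 for chr1:168665001-169775000 (1110 kb). In the sweep with the highest score, teosinte-maize sweeps covered 205 kb and teosinte-landrace sweeps 335 kb, and in the second they covered 170 kb and 175 kb. Neither of these sweeps held a differentially methylated region (DMR) of any pair of populations.

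Chromosome 5 supplied 4 of the 10 highest scores, the second and 3 others within a span of 6.92 Mb: chr5:121435001-122260000 (XP-CLR 232, 825 kb), chr5:118325001-119175000 (XP-CLR 219, 850 kb) and chr5:124545001-125240000 (XP-CLR 218, 695 kb). Chromosome 1 supplied 5, the first, the third, the 1025 kb sweep chr1:137305001-138330000 (XP-CLR 213) and both of its sweeps over 2 Mb named above. The remaining one was chr4:151200001-152590000 (XP-CLR 218, 1390 kb). No sweep of the other 7 chromosomes was among them. Chromosome 5 also had the highest median score, 91.9, and 17.4% of its sweeps were in the highest 10% of scores. The lowest such share was that of chromosome 3, with 5 of its sweeps (3.68%), followed by chromosome 9 with 4 (3.85%). Chromosome 9, which held both sweeps over 3 Mb, had no score above 157.

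**Figure D2:**
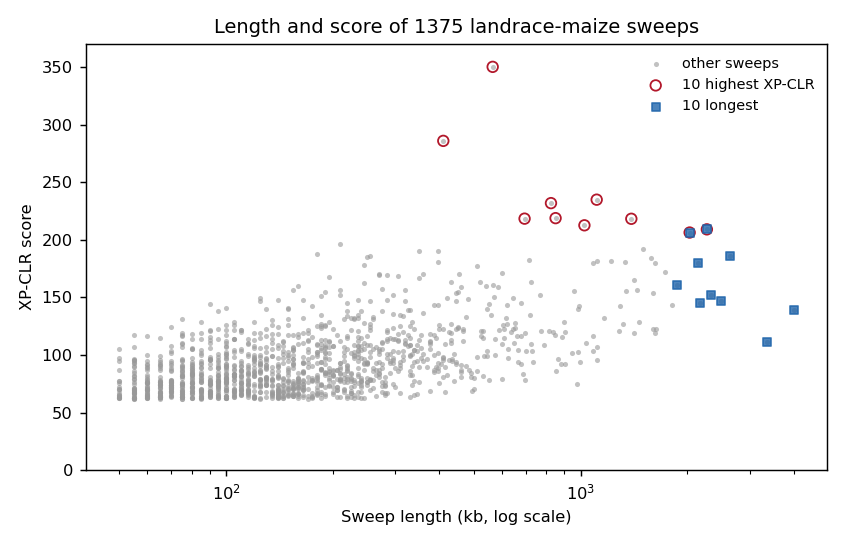
XP-CLR score of each landrace-maize sweep (vertical axis) against its length in kb (horizontal axis, log scale), 1 point per sweep. Squares mark the 10 longest and circles the 10 highest scores. Scores rose with length (Spearman correlation 0.50), but the 2 highest, 350 and 286, belonged to sweeps of 565 kb and 410 kb, and the longest sweep scored 139.

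The position along the chromosome was described in 20 equal bins of 5% of each chromosome's length. Pooled over the 10 chromosomes, the covered share was 4.14% in the first 5%, reached 30.1% between 40% and 45%, and fell to 6.23% in the last 5%. The number of sweeps followed this course far less. In the middle of the chromosomes, from 40% to 60%, there were 6.98 sweeps per 10 Mb, against 6.29 in the first 20% and 5.63 in the last 20%. The covered shares of these parts were 23.6%, 10.3% and 7.90%. The median length was 185 kb in the middle, 120 kb in the first 20% and 110 kb in the last 20%.

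The rest of the chromosome lay between, but not symmetrically. From 20% to 40% the covered share was 21.4% with a median length of 190 kb, and from 60% to 80% it was 14.1% with a median of 140 kb, although the latter part had the most sweeps per 10 Mb, 7.12. Of the 40 sweeps over 1 Mb, 34 had their middle between 20% and 60%, 3 lay in the first 20%, 3 between 60% and 80%, and none in the last 20%. Scores varied less with position than lengths did, with medians of 89.0 in the middle, 80.6 in the first 20% and 82.7 in the last 20%. Along the same parts, teosinte-maize sweeps covered 7.21%, 30.7%, 26.1%, 8.57% and 6.42%, and teosinte-landrace sweeps 10.2%, 29.1%, 24.6%, 9.24% and 6.34%. The part from 60% to 80% was where the landrace-maize pair, at 14.1%, stood highest above both of the other pairs.

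**Figure D3:**
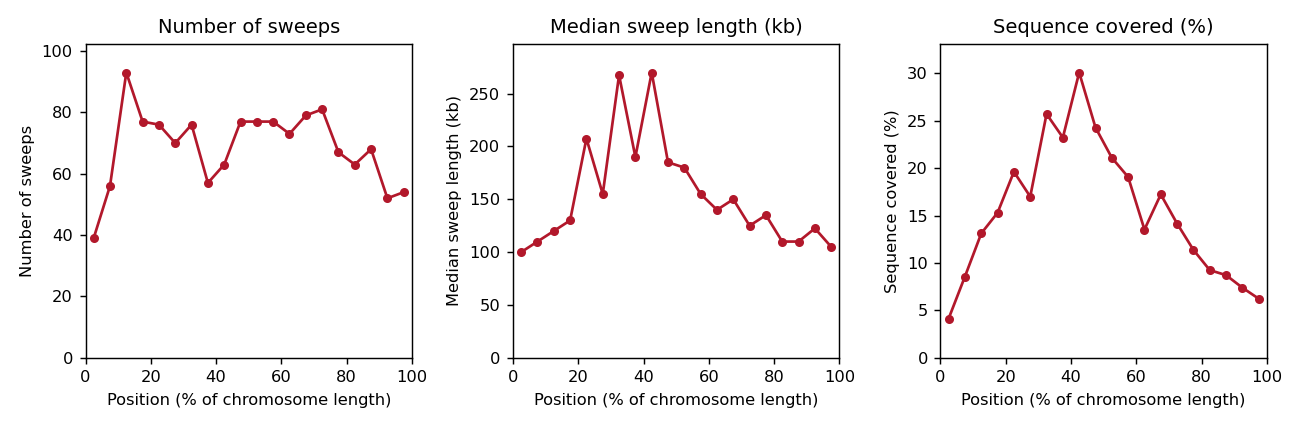
Number of landrace-maize sweeps, their median length (kb) and the share of sequence they covered (%), each in 20 bins of 5% of chromosome length, pooled over the 10 chromosomes. Length and covered share peak near 40% (270 kb and 30.1% between 40% and 45%), where the number of sweeps (63) is below that of the bin with the most (93).

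Each chromosome had more of its sequence covered between 20% and 60% than in the first 20% and last 20% combined, in 10 of 10 chromosomes. In percentage points, the contrast was widest on chromosome 5, with 31.6% against 10.6%, and on chromosome 4, with 31.3% against 11.99%. It was narrowest on chromosome 8, with 13.5% against 10.8%, and on chromosome 10, with 12.3% against 8.46%. As a ratio it was wider on chromosome 9, with 24.4% against 7.58%, and on chromosome 3, with 18.2% against 5.93%. Chromosome 10 had its densest part further along, with 31.8% covered between 60% and 80%, and 65.5% between 65% and 70%. The densest single bins of the other chromosomes were 80.3% between 35% and 40% of chromosome 9, 72.96% and 72.1% between 40% and 45% of chromosomes 4 and 1, and 67.2% between 50% and 55% of chromosome 5. Chromosome 8 had no bin above 28.3%. Of the 200 bins, 1 contained the middle of no sweep, also on chromosome 10.

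**Figure D4:**
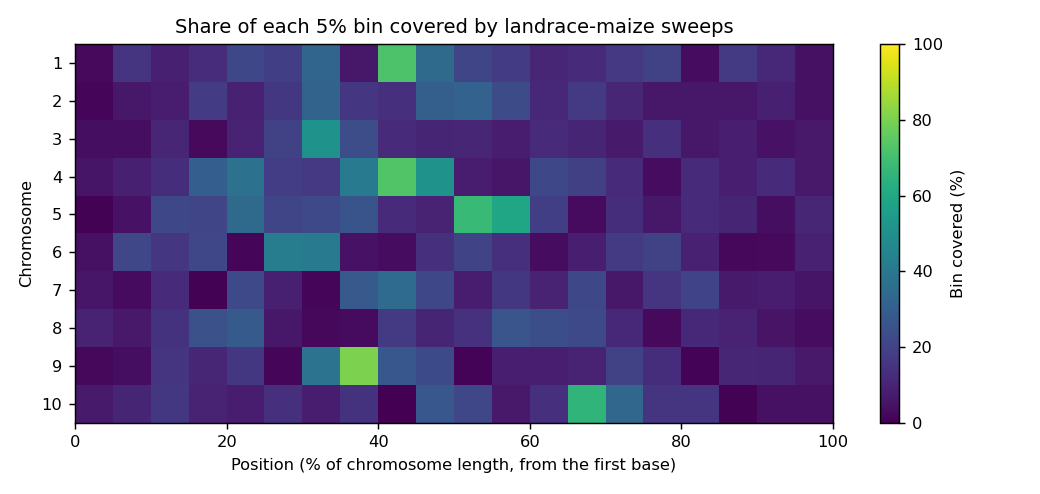
Share of each bin covered by landrace-maize sweeps (colour, 0% to 100%), with chromosomes as rows and position in % of chromosome length as columns of 5%. The brightest bins stand at 40% to 45% on chromosomes 1 and 4, at 35% to 40% on chromosome 9, at 50% to 55% on chromosome 5 and at 65% to 70% on chromosome 10. Chromosome 8 has none above 28.3%.

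The spacing of the sweeps was uneven. The 1365 gaps between neighbours had a median of 685 kb, quartiles of 235 kb and 1660 kb and a mean of 1278 kb. There were 138 gaps of at most 100 kb (10.1%) and 56 gaps of more than 5 Mb, which together made up 376 Mb, or 17.9% of the chromosomes. When sweeps at most 100 kb apart were joined, 245 sweeps (17.8%) fell into 107 clusters and the other 1130 stayed single. Clusters consisted of exactly 2 sweeps in 88 cases, of 3 in 13, and of 4 or more in 6. The clustered sweeps held 28.2% of the swept sequence, with a median length of 190 kb against 135 kb for single sweeps and a median score of 101 against 82.8. The number of clusters depended on the gap chosen, from 19 at 50 kb to 303 at 500 kb.

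The cluster with the most swept sequence, chr1:129355001-136420000, consisted of 6 sweeps that together filled 6.75 Mb of 7.07 Mb (95.5%). Their lengths were, from first to last, 1340 kb, 1625 kb, 320 kb, 1330 kb, 105 kb and 2030 kb, and their scores 156, 180, 147, 181, 81.6 and 206. The sweep chr1:126965001-129235000 ended 120 kb before it, just over the limit. Teosinte-maize sweeps covered 6.42 Mb and teosinte-landrace sweeps 5.26 Mb of the same span. A cluster of 6 sweeps on chromosome 3, chr3:74620001-78475000, was more even, with lengths from 375 kb to 855 kb and scores from 85.6 to 109, over 3.50 Mb of 3.86 Mb. It was covered throughout its 3.86 Mb by teosinte-maize sweeps, gaps included, and over 3.42 Mb by teosinte-landrace sweeps.

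The cluster chr5:117945001-122260000 combined 5 sweeps over 4.05 Mb. Its first 2 sweeps, of 70.0 kb and 160 kb, had scores of 72.98 and 64.6, and the 3 that followed had scores of 219, 180 and 232. The cluster chr3:26430001-27250000 also had 5 sweeps but only 565 kb of swept sequence, in sweeps of 55.0 kb to 225 kb. The last of the 5, chr9:53400001-58420000, joined the longest sweep to 3 others of 100 kb, 340 kb and 345 kb. A cluster on chromosome 8, chr8:42270001-44215000, equalled it with 4 sweeps but held less swept sequence, 1.69 Mb.

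In fixed bins of 10 Mb, the median covered share of the 206 full bins was 11.7%, with 7 sweeps per bin. The highest was 89.8% in chr1:130000001-140000000, with 13 sweeps. It was followed by 76.3% in chr5:120000001-130000000 (12 sweeps), 73.5% in chr4:100000001-110000000 (12 sweeps), 66.5% in chr9:50000001-60000000 (7 sweeps) and 59% in chr4:90000001-100000000 (5 sweeps). In these 5 bins, in the same order, teosinte-maize sweeps covered 82.6%, 69.3%, 69.6%, 66.0% and 60.1%, and teosinte-landrace sweeps 66.1%, 58.4%, 68.0%, 70.2% and 38.8%. More than 30% was covered in 24 bins, which made up 11.4% of the chromosomes and held 34.7% of the swept sequence. Of these, 6 were on chromosome 4, 5 on chromosome 1, 3 each on chromosomes 2 and 5, and none on chromosome 8. In contrast, 34 bins had less than 5% covered, and 2 bins had no sweep at all, the first 10 Mb of chromosome 1 and chr10:60000001-70000000.

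The longest gap, 12.2 Mb at chr10:59280001-71435000, lay around this empty bin of chromosome 10. Teosinte-maize sweeps covered 1.06 Mb of it (4 sweeps) and teosinte-landrace sweeps 2.54 Mb (11 sweeps). The next were 10.7 Mb at chr1:110350001-121010000, 10.1 Mb at chr3:112370001-122455000 and 9.77 Mb at chr6:117120001-126890000. In the gap of chromosome 6, teosinte-maize sweeps covered 0.235 Mb and teosinte-landrace sweeps none. The fifth, 9.17 Mb at chr5:102780001-111950000, was different, since teosinte-maize sweeps covered 6.32 Mb of it and teosinte-landrace sweeps 3.43 Mb. Except for that of chromosome 6, centred at 70.1%, these gaps had their middle between 37.7% and 49.8% of the chromosome, the same part in which long sweeps were concentrated.

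DNA methylation of the same landraces and maize lines was compared by the authors, and the resulting DMRs were set against the sweeps. Cytosine methylation in plants occurs in the contexts CG, CHG and CHH, where H is any base but G, and a DMR is a stretch in which the mean methylation of a pair of populations differed. Of 171 landrace-maize CG DMRs, 42 lay in a landrace-maize sweep, or 24.6% (exact 95% binomial interval 18.3% to 31.7%). Of 188 CHG DMRs, 49 did, or 26.1% (19.9% to 33.0%), and of 15 CHH DMRs, 4 did, or 26.7% (7.79% to 55.1%). The sweeps covered 15.5% of the chromosomes, which lay below the CG and CHG intervals and inside the CHH interval. This is a share of whole chromosome length, whereas DMRs need mapped bisulfite reads, and the part of mappability was not tested. The paper compared DMRs with randomly drawn mappable regions, split by direction. For this pair, its permutation P value for CG DMRs less methylated in maize lay above its stated threshold. Its other CG and CHG sets lay below that threshold. In both contexts, its share in sweeps was higher for DMRs more methylated in maize. The CG and CHG counts above join both directions and add up to its overlaps, so they are no additional result. The intervals (Clopper-Pearson) cover counting error only and treat DMRs as independent, although neighbouring DMRs and the CG and CHG calls of one place are not. Expressed per 100 Mb, there were 12.9 CG DMRs in sweeps and 7.25 outside, and 15.1 CHG DMRs in sweeps and 7.81 outside.

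Shares of this size were also found for DMRs of the other pairs. Of the teosinte-landrace DMRs, 23.2% (CG, 100 of 431) and 24.6% (CHG, 145 of 590) lay in landrace-maize sweeps, and of the teosinte-maize DMRs 22.5% (CG, 347 of 1545), 21.0% (CHG, 497 of 2372) and 23.7% (CHH, 250 of 1055). The intervals of the landrace-maize shares included each of these values, so no share particular to the landrace-maize DMRs was detectable. All these DMR sets were called from overlapping groups of plants.

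**Figure D5:**
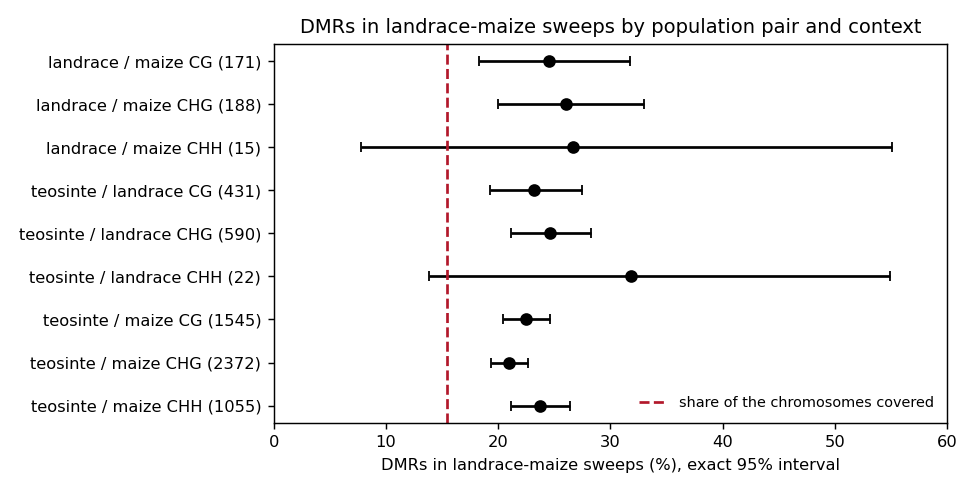
Share of DMRs that lay in a landrace-maize sweep (%), by pair of populations and sequence context, with the number of DMRs in parentheses. Points are shares, bars are exact 95% binomial intervals, and the dashed line is the 15.5% of the chromosomes that the sweeps covered. All points lie between 21.0% and 31.8%, and only both CHH sets with few DMRs have intervals that reach the line.

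Landrace-maize DMRs were not spread evenly along the chromosomes either. In the middle 20% there were 45 CG DMRs, of which 14 lay in a sweep, and 57 CHG DMRs, of which 20 did, where 23.6% of the sequence was covered. In the last 20%, 5 of 34 CG and 3 of 38 CHG DMRs lay in a sweep, where 7.90% was covered. From 20% to 40%, with 21.4% covered, it was 8 of 33 CG and 6 of 28 CHG DMRs. In the first 20%, with 10.3% covered, it was 6 of 36 CG and 11 of 28 CHG DMRs, and from 60% to 80%, with 14.1% covered, 9 of 23 CG and 9 of 37 CHG DMRs. The counts of DMRs in sweeps therefore did not follow the covered share in every part, and the part of position in the shares was not tested.

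Few sweeps held a landrace-maize DMR. There were 66 such sweeps (4.80%), and 43 of them had a single DMR. They had a median length of 330 kb against 140 kb for the other sweeps and a median score of 108 against 84.2, and 13 of the 40 sweeps over 1 Mb were among them. A longer sweep has more room for a DMR, so the difference in length and the 13 of 40 are fixed in part by length. The part of length in the difference of scores was not tested. CG and CHG DMRs occurred together in 22 sweeps. These can be 1 place called in both contexts. Of the 59 landrace-maize CG DMRs that overlapped a CHG DMR, 20 lay in a sweep. Of the other 112 CG DMRs, 22 did, and this difference in shares was not tested. The most DMRs, 2 CG and 2 CHG, were found in chr4:118605001-119640000 (1035 kb, XP-CLR 110), a sweep chosen for this count after its values were seen. With 3 DMRs each, the short sweeps chr4:115205001-115270000 (65.0 kb, XP-CLR 93.6), chr2:48100001-48225000 (125 kb, XP-CLR 75.4) and chr9:119230001-119380000 (150 kb, XP-CLR 77.3) were chosen in the same way, as was chr4:110600001-112415000 (1815 kb, XP-CLR 144). In each sweep named for its number of DMRs, a CG DMR overlapped a CHG DMR, so distinct places were fewer than DMRs. Of the 10 longest sweeps, 4 held a landrace-maize DMR. These were the sweep of chromosome 6 with 2 CG DMRs, chr1:134390001-136420000 with 1 CG and 1 CHG DMR, and chr4:96350001-98840000 and chr9:58545001-61890000 with 1 CHG DMR each.

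The gene lists that the study drew from its DMRs were placed against the sweeps by position. The lists rest on the same plants and are not independent evidence. They do not pair the gene IDs with names, so IDs are given as listed. Of 229 genes with an exonic DMR, 33 overlapped a landrace-maize sweep, which is 14.4%. The 15.5% of the chromosomes covered is a share of bases. The share over all genes is not known, as no annotation was used, so more or fewer genes than usual cannot be read from this. Counted by their teosinte-maize CG DMR, 32 of the 229 genes lay in a sweep, a lower share than the 22.5% of all teosinte-maize CG DMRs. The former counts genes with an exonic DMR and the latter DMRs at all positions, so the sets are unlike. This difference was not tested. Among the sweeps named above, chr7:38320001-39915000 held 3 of these genes (Zm00001d019515, Zm00001d019518 and Zm00001d019522), chr4:98925001-101250000 held Zm00001d050565 and chr4:102465001-104635000 held Zm00001d026866. In the cluster of chromosome 3, the sweep chr3:76670001-77525000 (855 kb, XP-CLR 86.4) held Zm00001d040898.

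Of the 10 candidate genes for flowering time, a trait that sets when a plant sheds pollen and shows silks, 2 had a DMR in a landrace-maize sweep, against 22.5% of all teosinte-maize CG DMRs, the kind of DMR listed for them. The study chose the candidates in part for lying in a sweep, so this count is fixed in part by that choice. Zm00001d050565, listed for the anthesis silking interval (the delay between pollen shed and silk emergence), had its DMR at chr4:101167779-101168118, in the fifth longest sweep. Zm00001d015884, listed for days to anthesis, had its DMR at chr5:128733514-128733682 in chr5:128085001-129495000, a sweep of 1410 kb with an XP-CLR of 119. The DMRs of the other 8 candidates lay outside the landrace-maize sweeps.

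The study listed 60 genes contacted by intergenic teosinte-maize CG DMRs that were less methylated in maize. The contacts came from published maize chromatin interaction data. These genes rest on 42 distinct DMRs, of which 13 lay in a landrace-maize sweep, and these 13 were listed with 16 genes. The share of all teosinte-maize CG DMRs, 22.5%, counts both directions and all positions, so the sets are unlike. In the paper, teosinte-maize CG DMRs with a contact lay in sweeps of their own pair less often than expected. For landrace-maize DMRs with a contact, the paper gave no significant difference. The contact anchor of the gene and the DMR shared the sweep in 9 cases, with distances from 8.07 kb (Zm00001d014032, in chr5:29445001-30070000) to 155 kb (Zm00001d041201). A single DMR, chr3:105339953-105340118, was listed with 4 of them, Zm00001d041201, Zm00001d041203, Zm00001d041204 and Zm00001d041205, in a sweep of 865 kb with an XP-CLR of 96.2. The others were Zm00001d004843, Zm00001d015618, Zm00001d046148 and, again, Zm00001d050565, which had a second DMR 17.2 kb from its contact anchor within the same sweep of 2325 kb. For Zm00001d024784 the DMR lay at the edge of a 100 kb sweep of chromosome 10 and the anchor, 29.0 kb away, outside it.

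The other 6 genes were listed with a DMR on another chromosome. The 850 kb sweep of chromosome 5 with the fifth highest score, 219, held a pair of DMRs listed with Zm00001d019263 on chromosome 7, and the second longest sweep held the DMR listed with Zm00001d034350 and Zm00001d034351 on chromosome 1. The longest sweep of chromosome 10 held that of Zm00001d048152 on chromosome 9. For Zm00001d047806 on chromosome 9 and Zm00001d019920 on chromosome 7, the DMRs lay in sweeps of chromosome 2, of 320 kb (XP-CLR 113) and 495 kb (XP-CLR 68.9).

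The DMR upstream of tb1 (teosinte branched1, a transcription factor that represses side branches and a classic domestication gene) lay at chr1:270512522-270513056 and was a teosinte-maize CG DMR. It was in the landrace-maize sweep chr1:270480001-270580000, 32.5 kb from its start. This sweep was ordinary among the 1375, with a length of 100 kb (932nd) and an XP-CLR of 79.5 (811th). All 100 kb were also in a teosinte-maize sweep and none in a teosinte-landrace sweep.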

How the data were processed

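WGS reads of 17 landrace plants were mapped by the authors to B73 AGPv4 with BWA, and the submitters' processing notes also name Picard, GATK 4 and Bismark. Modern maize was represented by published WGS of 14 inbred lines. For the deposited sweep table, the authors ran XP-CLR in overlapping windows that each used the same count of SNPs, merged nearby windows of the upper tail and kept the outliers, with 1 score per sweep. Equal SNP counts make windows comparable, whereas merging lengthens sweeps where high windows lie close together. The score has no fixed range and was compared only within the landrace-maize pair. DMRs were deposited as positions with their context and pair. Both tables hold population calls, so no depth or error per plant could be given, and the deposited table of plant details was not used.

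From these, all rows labelled Landrace/Maize were taken. Starts of sweeps count from 1. DMR starts, for which no source used here states the origin, were counted from 0. In 8 landrace-maize rows the end was written in scientific notation and was read as a round number, which lay on the 5 kb grid of the other ends. Chromosomes end at the largest position in the tables. Overlap meant at least 1 bp. Clusters joined sweeps at most 100 kb apart, and clusters with equal numbers were ordered by swept sequence. No statistical test was run. Sweeps were named as the 10 longest, the 10 highest in score, the longest per chromosome, the 5 largest clusters, the 5 densest bins of 10 Mb, the 5 longest gaps and the sweep with the tb1 DMR. Named genes were flowering time and contact genes with a DMR in a sweep, and exonic genes in named sweeps. The members and lists were chosen with earlier results of these data known. Alternatives were other chromosome ends, joined sweeps, a higher score, length limits, chromosomes left out, other cluster gaps and bins, and a stricter overlap. Interval functions were tested on simulated data. Python 3.11.15, numpy 2.4.6, pandas 2.3.3, scipy 1.17.1 and matplotlib 3.10.9 were used. The gene table at hand, of another assembly, matched 0 of 289 listed gene IDs, and no genome sequence or annotation of AGPv4 was used here.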

Additional observations from a re-analysis of the deposited data

How the results depend on the processing

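Sweeps with an XP-CLR at or above the median numbered 688 and covered 11.02%, with a median length of 210 kb and 28.3% of swept sequence in sweeps over 1 Mb. They formed 53 clusters, left 9.22% of full 10 Mb bins empty (0.971% with all sweeps) and covered at most 88.7% of a bin, and 18.7% (CG), 20.2% (CHG) and 13.3% (CHH) of landrace-maize DMRs lay in them. Sweeps of at least 100 kb covered 14.1%, with a median of 190 kb and 22.2% in sweeps over 1 Mb. Without the sweeps over 1 Mb, 12.3% was covered, the longest was 995 kb, 15.8% of sweeps were clustered, the densest bin had 52.4%, and the shares of landrace-maize DMRs in sweeps were 17.5% (CG) and 19.7% (CHG). Chromosome ends from the landrace-maize sweeps alone gave 15.6% covered, and joining sweeps at most 50 kb apart gave 20.9% in sweeps over 1 Mb.

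Cluster gaps of 50 kb, 200 kb and 500 kb gave 19, 203 and 303 clusters with 2.84%, 36.7% and 64.1% of the sweeps. Bins of 5 Mb and 20 Mb left 6.01% and 0% empty, and the densest had 93.7% and 64.4%. Leaving out each chromosome in turn gave 14.8% to 15.9% covered, 17.9% to 21.4% in sweeps over 1 Mb and a longest sweep of 2645 kb to 3990 kb, the former without chromosome 9. The DMR shares were the same with a 50% overlap or starts counted from 1. How far other plants would move the calls is not known, and the score cutoff of the authors bounds what the table can show. No paired analysis was possible because the sweeps are single calls per population and come from no test.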
